A study of Mus musculus with 18 samples.

Results

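The insulin-like growth factor (IGF) axis and the imprinted RNA H19 were examined as 10 genes, Igf1, Igf2, H19, Igf1r, Igf2r, Igfbp3, Igfbp4, Igfbp5, Igfbp6 and Igfbp7, out of 55487 genes listed for each library. They were chosen by name with earlier results of these data known, and Ensembl identifiers were paired with mouse symbols. The gene lists below were chosen with the same knowledge, so the called shares of members and lists are descriptions and not independent support. All 10 were found, and 8 had enough counts to be tested among 13600 tested genes. The other members, Igf2 and Igfbp5, held 0 to 4 counts per library. The cells were T23, labelled as tumour cells and described by the study as mouse adenocarcinoma cells, in 18 poly(A) RNA-seq libraries of 6 groups with 3 libraries each. The groups were T23 cells alone, T23 cells co-cultured with wild type fibroblasts (Fibro), T23 cells co-cultured with SPARC-deficient fibroblasts (Fibro SparcKO), T23 cells with enzalutamide (ENZA, an androgen receptor antagonist), co-cultured T23 cells with ENZA, and co-cultured T23 cells with ENZA and isoliquiritigenin (ISO, a plant chalcone). The last 2 groups are called the enzalutamide co-culture and the isoliquiritigenin co-culture here. Their descriptions name human fibroblasts, while their titles carry FIBROB6, the name in the titles of the wild-type co-culture, so the fibroblasts of these groups are not known with certainty. The labels give neither doses nor times, nor whether fibroblasts were removed before lysis. Nor do they state that the replicates came from separate cultures, so p-values measure the spread between these libraries, which may be technical.

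IGF1 and IGF2 are secreted ligands that bind the receptor tyrosine kinase IGF1R, which acts through insulin receptor substrates, PI3K and AKT and promotes growth and survival. IGF2R, the cation-independent mannose 6-phosphate receptor, takes up IGF2 and carries it to lysosomes, and the IGF-binding proteins hold the ligands outside the cell and are cut by secreted proteases. H19 is a spliced noncoding RNA, made from the maternal allele at the locus it shares with the paternally expressed Igf2, and is abundant in the fetus and low in most adult tissues. In the prostate, IGF1 is known mainly as a stromal signal to epithelium.

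Library totals were 16.1 to 26.7 M counts, with 18123 to 20154 genes detected. In replicate 2 of enzalutamide alone, 26.4% of counts fell on the ribosomal RNA gene CT010467.1, against 0.0391% to 0.138% in the other libraries, so the members' called differences with enzalutamide alone, and the list genes named there, are also given without it. The titles carry an index that restarts after 16, which places all isoliquiritigenin libraries and the enzalutamide co-culture's replicates 2 and 3 in a second numbering series. What this index stands for is not stated. With a term for this series, a comparison of the enzalutamide co-culture with a group of the first series rests on replicate 1 of that co-culture. Sparc stood at 2977 to 3101 normalised CPM (counts per M counts of the scaled library) with SPARC-deficient fibroblasts and at 3049 to 3092 with wild-type fibroblasts, and T23 cells alone held 3191 to 3208, so this gene does not check the fibroblast label. Of 16 fibroblast markers, 14 passed the filter on low counts, and their sum was 28516 to 29742 normalised CPM in T23 cells alone, with Lum and Pi16 at or near 0 throughout. The sum was 27581 to 28996 with wild-type fibroblasts and 30206 to 31722 with SPARC-deficient ones, 24170 to 26596 with enzalutamide, 24791 to 25992 in the enzalutamide co-culture and 21668 to 22099 in the isoliquiritigenin co-culture. These markers therefore do not separate fibroblast RNA from T23 RNA. Of 8 epithelial markers, 2 averaged over 1 normalised CPM, the list's sum was at most 44.0, and Epcam was at most 0.314, so an epithelial profile was nearly absent from libraries labelled as an adenocarcinoma line.

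Within T23 cells alone, the levels of the 8 tested members per kilobase of exon spanned a wide range, with binding proteins on top and the growth factor Igf1 at the bottom. Igfbp6 stood at 295 normalised CPM per kb, Igfbp4 at 118 and the receptor Igf2r at 73.3. Igfbp3 followed at 22.7 and Igfbp7 at 16.4, then the receptor Igf1r at 7.52, H19 at 4.36 and Igf1 at 1.46. The order was the same when the longest single transcript was used as the length, with 295 for Igfbp6 and 2.05 for Igf1. Among the 5 binding proteins, Igfbp6 made up 65.1% ± 1.35 (SD, n = 3) of the summed per-kb level in T23 cells alone and Igfbp4 26.2% ± 1.42. The Igfbp6 share ranged from 63.5% ± 1.54 in the isoliquiritigenin co-culture to 72.0% ± 0.256 in the enzalutamide co-culture. Igfbp4 was at its lowest share in the enzalutamide co-culture, at 18.6% ± 0.241.

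**Figure D1:**
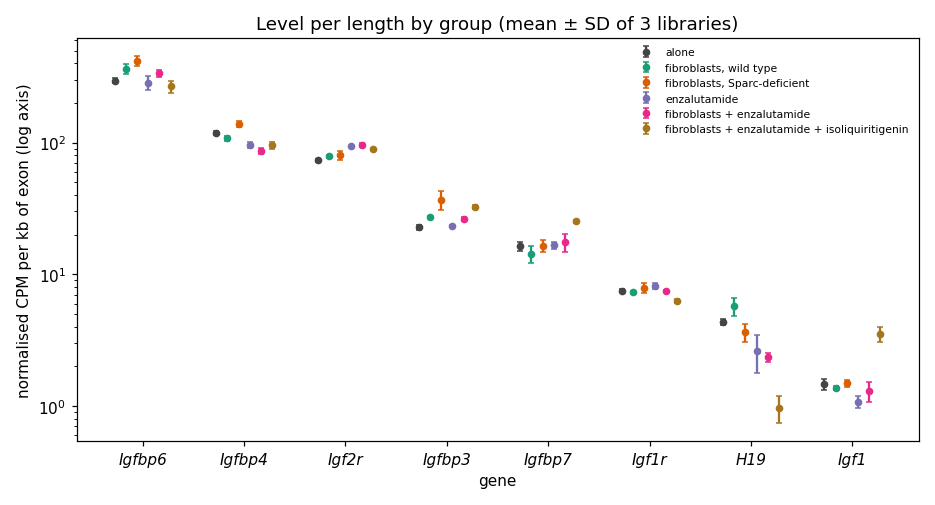
Normalised CPM per kb of exon (log axis) for the 8 tested members, as mean ± SD of 3 libraries in each of the 6 groups. In T23 cells alone Igfbp6 stands highest at 295 and Igf1 lowest at 1.46, and in the isoliquiritigenin co-culture Igf1 lies above H19.

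The 7 comparisons of group means and 1 interaction were tested in a single fit of all 18 libraries. Several share a group: T23 cells alone enter 3 of the comparisons and also the interaction. The wild-type co-culture, the SPARC-deficient co-culture, the enzalutamide group and the enzalutamide co-culture also recur, so the tests are not independent. With wild-type fibroblasts against T23 cells alone, 0 of the 8 tested members were called at an adjusted p under 0.05 by edgeR, where 0.515% of all tested genes were called; 4 members had an unadjusted p under 0.05, and DESeq2 called 1. With SPARC-deficient against wild-type fibroblasts, 2 members were higher and 1 lower, where 11.5% of all tested genes were called, 6.72% higher and 4.79% lower. The same co-culture against T23 cells alone gave 3 members higher and 0 lower, where 9.74% of genes were called, 6.10% higher and 3.65% lower. With enzalutamide against T23 cells alone, 1 member was higher and 3 were lower, where 12.0% of genes were called, 6.84% higher and 5.19% lower. Enzalutamide in co-culture, against the wild-type co-culture, gave 1 higher and 2 lower, where 7.18% of genes were called, 3.70% higher and 3.49% lower. Fibroblasts under enzalutamide gave 0 called members by edgeR and 0 by DESeq2, where 2.08% of genes were called, with 5 at an unadjusted p under 0.05. Isoliquiritigenin added to the enzalutamide co-culture gave the most called members, 3 higher and 3 lower of 8, in a comparison where 26.5% of all tested genes were called, 12.9% higher and 13.6% lower. The interaction, which asks whether the response to enzalutamide differs with and without fibroblasts, called 0 members by edgeR and 0 by DESeq2, where 0.0221% of genes were called, with 1 at an unadjusted p under 0.05. The median log2 fold change of the members lay between -0.07 and 0.16 across the 8 tests, and that of all tested genes within 0.01 of 0. The fibroblast marker sum given above was higher with SPARC-deficient fibroblasts and lower with enzalutamide and isoliquiritigenin. It is dominated by the collagens Col1a1 (6837 to 12218 normalised CPM), Col1a2 (7239 to 10633) and Col3a1 (4044 to 5726). The 14 tested markers moved both ways: 4 higher and 3 lower with SPARC-deficient against wild-type fibroblasts, and 2 and 5 with enzalutamide alone. They were 2 and 4 with enzalutamide in co-culture, and 4 and 8 with isoliquiritigenin. The epithelial marker sum was 20.3 to 23.2 normalised CPM in T23 cells alone and 17.0 to 20.2 with enzalutamide alone. It was 25.7 to 28.0 with wild-type and 42.1 to 44.0 with SPARC-deficient fibroblasts, and 15.8 to 19.7 in the enzalutamide and 4.92 to 6.36 in the isoliquiritigenin co-culture. The mitochondrial share of counts was 0.824% to 1.68% in the 3 groups without enzalutamide. It was 1.88% to 4.06% with enzalutamide alone, 1.55% to 2.71% in the enzalutamide co-culture and 2.80% to 3.77% in the isoliquiritigenin co-culture. The part of these in the members' results was not tested.

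**Figure D2:**
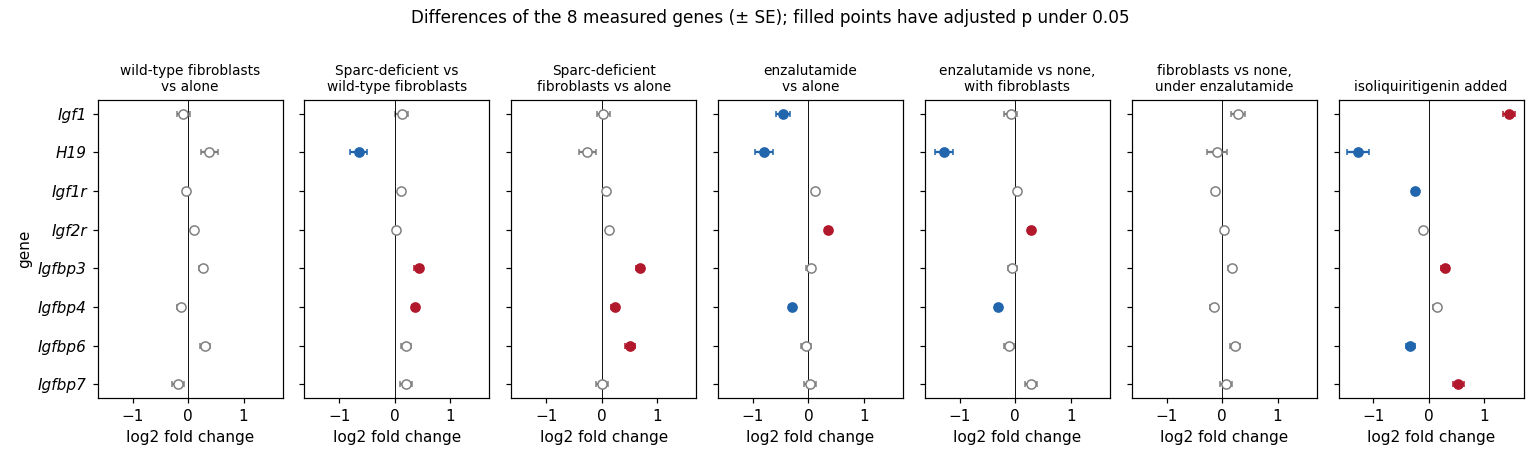
Log2 fold change ± SE of the 8 tested members (rows) in 7 comparisons (panels); filled points have an adjusted p under 0.05, red for higher and blue for lower. The largest rise is Igf1 at 1.44 with isoliquiritigenin, the largest falls are H19 at -1.28 both with enzalutamide in co-culture and with isoliquiritigenin, and no point is filled for wild-type fibroblasts against T23 cells alone or for fibroblasts under enzalutamide.

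Igf1, the ligand of IGF1R, was low in 5 groups and higher in the isoliquiritigenin co-culture. T23 cells alone had 13.2, 15.8 and 14.4 normalised CPM, the wild-type co-culture 13.6, 14.1 and 13.0, and the SPARC-deficient co-culture 14.4, 14.0 and 15.8. Enzalutamide alone gave 10.2, 12 and 9.96, and the enzalutamide co-culture 13.8, 14.5 and 10.3. The isoliquiritigenin co-culture gave 38.0, 37.1 and 29.7. All 3 of these libraries lay above the other 15, while the ranges of the first 3 groups and the enzalutamide co-culture overlapped. In group order the isoliquiritigenin mean was 34.9 ± 4.56 (SD, n = 3), 3.26 times the lowest mean of 10.7 ± 1.11 with enzalutamide alone, and each neighbouring pair below the top overlapped. Isoliquiritigenin raised Igf1 by 1.44 ± 0.11 (log2 ± SE, adjusted p = 2.05e-09), which is 2.72-fold with a 95% interval of 1.21 to 1.67 on the log2 scale. Within the second numbering series alone the difference was 1.50 (adjusted p = 4.20e-08). In bulk RNA, fewer cells of a type and less RNA per cell cannot be told apart.

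Enzalutamide lowered Igf1 in T23 cells without fibroblasts by 0.45 on the log2 scale (log2 fold change -0.45 ± 0.12, adjusted p = 0.0174), and the groups did not overlap. The value was -0.52 without the ribosomal RNA-rich library (adjusted p = 0.00957). The call was lost without replicate 2 of T23 cells alone (adjusted p = 0.0904) and without replicate 1 (0.0566) or 3 (0.0578) of enzalutamide. In co-culture the corresponding value was -0.08 ± 0.12 (adjusted p = 0.765). The difference between these responses was 0.37 ± 0.17, with an adjusted p of 0.866 for the interaction, and 0.44 (adjusted p = 0.683) without replicate 2 of enzalutamide. Neither fibroblast type moved Igf1 past the threshold, with log2 fold changes of -0.09 ± 0.12 for wild-type and 0.03 ± 0.12 for SPARC-deficient fibroblasts against T23 cells alone.

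**Figure D3:**
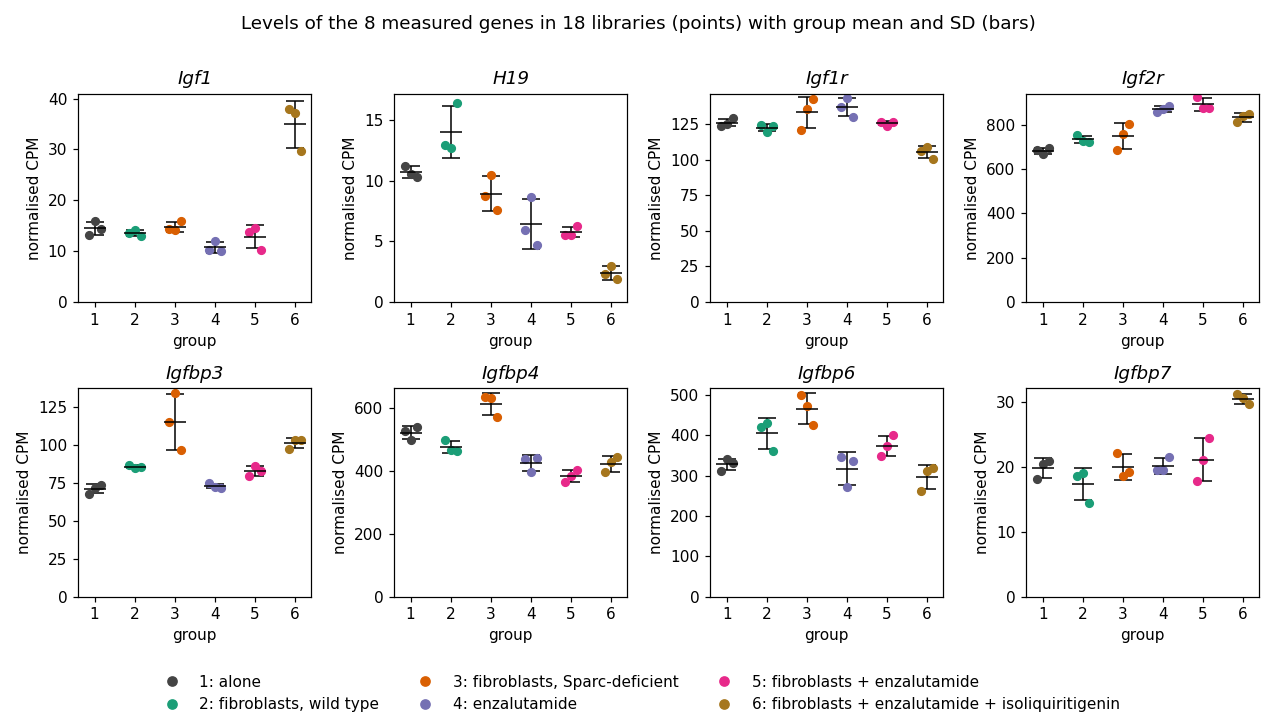
Normalised CPM of the 8 tested members in each of 18 libraries (points), with group mean and SD (bars) and axes from 0. The 3 isoliquiritigenin libraries stand above the rest for Igf1 (29.7 to 38.0) and Igfbp7 (29.7 to 31.2) and below the rest for H19 (1.90 to 2.99).

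Igf1 (ENSMUSG00000020053) lies at chr10:87858265-87937042 on the plus strand of GRCm38, with 9904 bases of exon in GENCODE M21. Its promoter is shown because this gene had the largest rise among the members, and those of Igfbp3 and Igfbp4 because both rose with SPARC-deficient fibroblasts. Each window holds the 250 bases before the RefSeq gene start (GRCm38.p6), 5′ to 3′ on the strand of the gene: chr10:87860861-87861110 (plus) for Igf1, chr11:7213924-7214173 (minus) for Igfbp3 and chr11:99040994-99041243 (plus) for Igfbp4. Capitals mark a match of TGANTCA in Igf1, of TATATA in Igfbp3 and of the TATA box TATAAA in Igfbp4. TGANTCA is the AP-1 motif TGA(C/G)TCA with any central base, and the Igf1 match, TGAATCA, is not of that stricter form.
Igf1 promoter: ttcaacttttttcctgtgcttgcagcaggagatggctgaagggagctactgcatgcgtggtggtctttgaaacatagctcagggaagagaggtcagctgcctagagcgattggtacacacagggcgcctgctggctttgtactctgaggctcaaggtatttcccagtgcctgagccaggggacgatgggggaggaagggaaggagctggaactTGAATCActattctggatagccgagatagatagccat
Igfbp3 promoter: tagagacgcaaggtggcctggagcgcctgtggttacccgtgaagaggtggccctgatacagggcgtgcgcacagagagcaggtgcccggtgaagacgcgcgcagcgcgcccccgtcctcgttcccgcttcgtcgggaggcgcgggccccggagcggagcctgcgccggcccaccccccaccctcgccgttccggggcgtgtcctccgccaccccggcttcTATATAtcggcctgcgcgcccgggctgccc
Igfbp4 promoter: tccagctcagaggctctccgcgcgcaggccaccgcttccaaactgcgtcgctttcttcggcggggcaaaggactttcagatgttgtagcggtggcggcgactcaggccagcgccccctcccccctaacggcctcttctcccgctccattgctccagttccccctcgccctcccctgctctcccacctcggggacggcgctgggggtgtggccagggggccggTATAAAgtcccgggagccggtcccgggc
The matches begin 37, 30 and 28 bases before the RefSeq start. For Igf1 that start lies inside the GENCODE gene, downstream of its first base at chr10:87858265. The Igf1 window is therefore not the promoter of the GENCODE gene start. Motifs were searched on both strands in windows of 250 bases for the 9 members with a RefSeq promoter entry. Of 32841 promoters, 6.75% hold TGANTCA, 12.4% TATAAA and 5.25% TATATA, a motif added after the sequences had been seen. The STAT motif TTCNNNGAA, in 7.02% of promoters, was in none of the members' windows. The GC box GGGCGG, in 32.7% of promoters, was found in those of Igf1r, Igf2r and Igfbp7. Igf2 has several RefSeq starts, and the GC box was in some of its windows and absent from others. A TATAAA match also lies 148 bases before the start of Igfbp6. Different motifs of this set can share bases, and a match describes the sequence without showing a site.

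Igf2, the fetal growth factor and ligand of both receptors, was counted once in replicate 1 of the isoliquiritigenin co-culture and at 0 in the other 17 libraries. A count of 0 allows 3 counts, which was 0.108 to 0.272 normalised CPM in these libraries. Igf2 (ENSMUSG00000048583) lies at chr7:142650766-142666816 on the minus strand, and 62.8% of its exon bases are shared on the same strand with Gm49394, which was also at 0 counts. Reads that fall in shared exons may not have been assigned to either gene, so the Igf2 count is uncertain. No fold change was computed for it.

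H19 was the member whose group means spread most, 5.87-fold from highest to lowest. It stood at 11.3, 10.6 and 10.3 normalised CPM in T23 cells alone, at 13.0, 12.7 and 16.5 with wild-type fibroblasts, and at 8.75, 10.5 and 7.62 with SPARC-deficient fibroblasts. With enzalutamide alone it stood at 5.97, 8.71 and 4.67, and in the enzalutamide co-culture at 5.56, 5.50 and 6.25. In the isoliquiritigenin co-culture it stood at 2.30, 2.99 and 1.90. The wild-type co-culture lay above all other libraries and the isoliquiritigenin co-culture below all others. T23 cells alone, the SPARC-deficient co-culture, enzalutamide and the enzalutamide co-culture formed a descending order in which each neighbouring pair overlapped. These levels rest on 45 to 326 counts per library.

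Enzalutamide lowered H19 with and without fibroblasts. The log2 fold change was -0.80 ± 0.17 in T23 cells without fibroblasts (adjusted p = 0.00233) and -1.01 (adjusted p = 6.74e-05) when replicate 2, rich in ribosomal RNA, was left out, which held the highest H19 level of its group. In co-culture it was -1.28 ± 0.16 (adjusted p = 1.60e-05), or 2.43-fold lower. It was -1.33 in a fit with a term for the numbering series, which rests on replicate 1 of the enzalutamide co-culture. The interaction was -0.47 ± 0.23 with an adjusted p of 0.904, and -0.27 (adjusted p = 0.906) without replicate 2 of enzalutamide alone. Fibroblast identity in this co-culture comparison is uncertain, as the labels differ. Isoliquiritigenin lowered H19 by a further 1.28 on the log2 scale (log2 fold change -1.28 ± 0.20, adjusted p = 3.29e-05, 2.42-fold lower), and the value within the second numbering series was -1.30 (adjusted p = 0.000181).

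With SPARC-deficient in place of wild-type fibroblasts, H19 fell by 0.65 on the log2 scale (log2 fold change -0.65 ± 0.15, adjusted p = 0.00541), and the groups did not overlap. Against T23 cells alone, neither co-culture passed the threshold: the log2 fold change was 0.39 ± 0.15 (adjusted p = 0.329) with wild-type and -0.26 ± 0.15 (adjusted p = 0.331) with SPARC-deficient fibroblasts. The wild-type value lay above T23 cells alone in all 3 libraries.

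H19 (ENSMUSG00000000031) lies at chr7:142575529-142578143 on the minus strand, with 2460 bases of exon. The H19 RNA holds the hairpin of miR-675, a microRNA cut from it, and 3.41% of its exon bases are shared with Mir675, which had 0 counts in these poly(A) libraries. A further part lies opposite antisense small RNA models without counts, so 9.15% of exon bases are shared on either strand. The mature forms are shown because they are the products encoded inside H19, with the seed (bases 2 to 8) in capitals, as listed by RefSeq on GRCm38.p6. The 3p form lies at chr7:142577078-142577099 and the 5p form at chr7:142577112-142577133, both on the minus strand.
mmu-miR-675-5p: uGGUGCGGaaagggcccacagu
mmu-miR-675-3p: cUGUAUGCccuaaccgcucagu
The seeds differ, and no level of either form was measured here.

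Of 12 listed neighbours of H19 and Igf2 on the chromosome, 6 were tested. With SPARC-deficient against wild-type fibroblasts 0 were called (11.5% of all tested genes), and with enzalutamide in co-culture 0 (7.18%). Enzalutamide alone and isoliquiritigenin each moved 1 (16.7% of those tested, against 12.0% and 26.5% of all tested genes). With 6 genes, these shares cannot be told apart from those of all genes. Enzalutamide alone lowered 1, the tetraspanin Cd81, from 443 ± 4.65 to 392 ± 16.0 normalised CPM (log2 fold change -0.17 ± 0.05, adjusted p = 0.0324; -0.21 and 0.0106 without replicate 2), in the direction of H19. Isoliquiritigenin raised 1, the lysosomal protease Ctsd, from 416 ± 10.1 to 561 ± 28.9 (0.43 ± 0.06, adjusted p = 1.82e-05). Ins2 and Th were at 0 counts in all libraries, and Ascl2 held 2 counts in all.

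Of 29 imprinted genes at other loci, 19 were tested. With SPARC-deficient against wild-type fibroblasts, 6 fell and 1 rose (36.8% of those tested, against 11.5% of all tested genes), with a list median of -0.18 against -0.01 for all tested genes. The fallen genes included the maternally expressed noncoding RNA Meg3, at 61.6 ± 3.45 against 96.3 ± 5.96 normalised CPM (-0.64 ± 0.10, adjusted p = 0.000102). Plagl1, a zinc finger transcription factor, stood at 9.07 ± 0.671 against 15.4 ± 0.632 (-0.76 ± 0.08, adjusted p = 7.41e-07). Dlk1, a Notch-like membrane protein, stood at 0.671 ± 0.317 against 1.35 ± 0.112 (-1.01 ± 0.31, adjusted p = 0.0339). Its levels are low and rest on few counts, at 0.307 to 1.63 normalised CPM and 389 counts summed over all libraries. Dlk1, Meg3, Rian and Mirg are neighbours at a single imprinted cluster, so these falls are not independent loci.

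Against T23 cells alone, SPARC-deficient fibroblasts lowered 6 of the 19 and raised 0 (31.6%, against 9.74% of all tested genes), including Dlk1 (-1.17 ± 0.30, adjusted p = 0.0142), Plagl1 (-0.98 ± 0.08, adjusted p = 1.10e-08) and the noncoding RNA Rian (-0.56 ± 0.09, adjusted p = 0.000182). Enzalutamide lowered 6 and raised 1 (36.8%, against 12.0% of all tested genes), and without replicate 2 it lowered 6 and raised 0. The risen gene, the antisense noncoding RNA Kcnq1ot1, stood at 3.83, 8.16 and 3.96 normalised CPM against 2.79, 2.41 and 2.52 in T23 cells alone (0.94 ± 0.25, adjusted p = 0.0149). The highest value was that of the ribosomal RNA-rich replicate 2, without which the call was lost (0.59, adjusted p = 0.0819). Ndn, a MAGE-family growth suppressor, stood at 19.3 ± 1.89 against 28.6 ± 0.873 (-0.56 ± 0.08, adjusted p = 7.55e-05; -0.50 and 0.000172 without replicate 2). Rian stood at 167 ± 12.5 against 218 ± 12.5 (-0.38 ± 0.09, adjusted p = 0.00699; -0.34 and 0.0194 without replicate 2).

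In co-culture enzalutamide lowered 1 of the 19 and raised 1 (10.5%, against 7.18% of all tested genes). Ndn fell (-0.41 ± 0.08, adjusted p = 0.00201) and Impact, a translation regulator, rose (0.36 ± 0.06, adjusted p = 0.000941). Isoliquiritigenin raised 6 and lowered 2 (42.1%, against 26.5% of all tested genes), so most called genes of this list moved opposite to H19. Plagl1 rose to 27.7 ± 0.554 from 14.9 ± 0.229 (0.89 ± 0.07, adjusted p = 4.77e-09) and the receptor adaptor Grb10 to 28.6 ± 1.71 from 16.2 ± 0.717 (0.82 ± 0.08, adjusted p = 5.12e-08). The proteoglycan Dcn, also in the fibroblast marker list, fell to 145 ± 11.7 from 259 ± 8.17 (-0.84 ± 0.09, adjusted p = 9.70e-08).

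Igf1r, the signalling receptor, varied least among the members, 1.30-fold between group means. It stood at 124, 125 and 129 normalised CPM in T23 cells alone, at 125, 120 and 124 with wild-type fibroblasts and at 121, 136 and 143 with SPARC-deficient ones. It stood at 137, 143 and 130 with enzalutamide, at 127, 124 and 127 in the enzalutamide co-culture, and at 106, 109 and 101 in the isoliquiritigenin co-culture. Only the last group lay apart from all others, below them. Isoliquiritigenin lowered Igf1r by 0.26 on the log2 scale (log2 fold change -0.26 ± 0.05, adjusted p = 0.000869), and by 0.25 within the second numbering series (log2 fold change -0.25, adjusted p = 0.00438). SPARC-deficient against wild-type fibroblasts gave 0.12 ± 0.05 (adjusted p = 0.169), which passed the threshold only without replicate 1 of the SPARC-deficient co-culture (0.18, adjusted p = 0.0297). Igf1r (ENSMUSG00000005533) lies at chr7:67952827-68233668 on the plus strand with 16791 bases of exon.

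Igf2r, the receptor that clears IGF2 and sorts lysosomal enzymes, was higher in every library with enzalutamide than in those without it. T23 cells alone stood at 687, 667 and 693 normalised CPM, the wild-type co-culture at 753, 725 and 723, and the SPARC-deficient co-culture at 687, 756 and 801. Enzalutamide alone stood at 857, 870 and 885, the enzalutamide co-culture at 927, 873 and 877, and the isoliquiritigenin co-culture at 810, 840 and 850. The lowest enzalutamide-treated library thus lay above the highest untreated library. Enzalutamide raised Igf2r by 0.35 ± 0.05 on the log2 scale in T23 cells without fibroblasts (adjusted p = 0.000138), and by the same 0.35 (adjusted p = 4.34e-05) without the ribosomal RNA-rich library. In co-culture the log2 fold change was 0.28 ± 0.05 (adjusted p = 0.00162). It was 0.34 in a fit with a term for the numbering series, which rests on replicate 1 of the enzalutamide co-culture. The interaction was -0.07 ± 0.08 (adjusted p = 0.957, 95% interval -0.23 to 0.09). Isoliquiritigenin against the enzalutamide co-culture gave -0.10 ± 0.05 (adjusted p = 0.191), although the libraries of these groups did not overlap. SPARC-deficient co-culture against T23 cells alone gave 0.13 ± 0.05 (adjusted p = 0.140), and 0.19 (adjusted p = 0.0352) without replicate 1 of that co-culture. Igf2r (ENSMUSG00000023830) lies at chr17:12682406-12769664 on the minus strand, with 9308 bases of exon, none shared with its antisense partner Airn.

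Igfbp3, the main carrier of IGF1 in serum, was highest with SPARC-deficient fibroblasts. It stood at 67.8, 71.9 and 73.5 normalised CPM in T23 cells alone, at 86.7, 84.5 and 85.7 with wild-type fibroblasts, and at 115, 134 and 96.7 with SPARC-deficient ones. It stood at 74.7, 72.6 and 71.8 with enzalutamide, at 79.5, 85.8 and 82.6 in the enzalutamide co-culture, and at 97.5, 103 and 103 in the isoliquiritigenin co-culture. The SPARC-deficient co-culture spread most within its group and overlapped the isoliquiritigenin co-culture. Both lay above the other 4 groups. With SPARC-deficient fibroblasts Igfbp3 rose by 0.43 ± 0.07 against wild-type fibroblasts (adjusted p = 0.000383) and by 0.70 ± 0.07 against T23 cells alone (adjusted p = 7.87e-07, 1.62-fold). Wild-type fibroblasts against T23 cells alone gave 0.27 ± 0.08 with an adjusted p of 0.129, and all 3 libraries lay above T23 cells alone. That value passed the threshold without replicate 2 (adjusted p = 0.0376) or 3 (0.0314) of the SPARC-deficient co-culture, and when only the groups compared entered the fit (0.00273). Isoliquiritigenin raised Igfbp3 by 0.30 ± 0.07 (adjusted p = 0.00413), and by 0.27 within the second numbering series (adjusted p = 0.0255). Enzalutamide gave 0.04 ± 0.08 without and -0.05 ± 0.07 with fibroblasts, with adjusted p of 0.794 and 0.756. Igfbp3 (ENSMUSG00000020427) lies at chr11:7206086-7213923 on the minus strand with 3130 bases of exon.

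Igfbp4, a binding protein that holds back IGF action until the protease PAPP-A cuts it, was highest with SPARC-deficient fibroblasts and lower in all enzalutamide groups. T23 cells alone stood at 527, 500 and 542 normalised CPM, the wild-type co-culture at 499, 468 and 465, and the SPARC-deficient co-culture at 635, 634 and 573. Enzalutamide alone stood at 437, 397 and 442, the enzalutamide co-culture at 364, 384 and 404, and the isoliquiritigenin co-culture at 396, 428 and 444. The first 3 groups did not overlap with each other or with the enzalutamide groups, which overlapped among themselves. SPARC-deficient fibroblasts raised Igfbp4 by 0.36 ± 0.06 against wild-type fibroblasts (adjusted p = 0.000260). The rise against T23 cells alone was 0.23 ± 0.06 (adjusted p = 0.0158). That call was lost without replicate 1 (adjusted p = 0.0519) or 2 (0.0997) of T23 cells alone, and without replicate 1 (0.0701) or 2 (0.0810) of the SPARC-deficient co-culture. Enzalutamide lowered Igfbp4 without fibroblasts (log2 fold change -0.30 ± 0.06, adjusted p = 0.00228; -0.25 and 0.00526 without the ribosomal RNA-rich library). In co-culture it also lowered Igfbp4 (-0.31 ± 0.06, adjusted p = 0.00190). With a numbering term this co-culture value was -0.39, resting on replicate 1 of the enzalutamide co-culture. The interaction was -0.02 ± 0.09 (adjusted p = 0.998, 95% interval -0.19 to 0.16). Isoliquiritigenin gave 0.14 ± 0.06 (adjusted p = 0.101), and an adjusted p of 0.0406 without replicate 2 of enzalutamide. Igfbp4 (ENSMUSG00000017493) lies at chr11:99041244-99054392 on the plus strand with 4416 bases of exon.

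Igfbp6, a binding protein that prefers IGF2, had the highest per-kb level of the members and was highest in co-culture without enzalutamide. It stood at 312, 341 and 330 normalised CPM in T23 cells alone, at 421, 431 and 362 with wild-type fibroblasts and at 500, 473 and 424 with SPARC-deficient ones. It stood at 345, 271 and 335 with enzalutamide, at 350, 372 and 400 in the enzalutamide co-culture and at 262, 311 and 318 in the isoliquiritigenin co-culture. All 9 libraries with fibroblasts and without isoliquiritigenin lay above all 9 others, by a narrow margin. The lowest of the former stood at 350 and the highest of the others at 345. SPARC-deficient fibroblasts raised Igfbp6 by 0.51 ± 0.09 against T23 cells alone (adjusted p = 0.000392). Wild-type fibroblasts gave 0.30 ± 0.09 with an adjusted p of 0.145, which DESeq2 put at 0.0495, and 0.0242 without replicate 2 of enzalutamide. It was 0.00266 when only the groups compared entered the fit and 0.000200 without the filter on low counts. SPARC-deficient against wild-type fibroblasts gave 0.20 ± 0.09 (adjusted p = 0.144), and 0.0409 without that same enzalutamide library. Here the adjusted p was 0.0331 with only the groups compared and 0.0243 without the filter. Under enzalutamide, fibroblasts gave 0.23 ± 0.09 (adjusted p = 0.197), and 0.13 (adjusted p = 0.438) without that library. The adjusted p of this comparison was 0.00592 without the filter. Isoliquiritigenin lowered Igfbp6 (log2 fold change -0.33 ± 0.09, adjusted p = 0.00604; -0.38 and 0.00676 within the second numbering series), and this call was lost without replicate 1 of its own group (adjusted p = 0.0522). Igfbp6 (ENSMUSG00000023046) lies at chr15:102144362-102149511 on the plus strand with 1112 bases of exon.

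Igfbp7, a relative that binds IGFs weakly and also binds insulin, had overlapping ranges in 5 groups and was higher in the isoliquiritigenin co-culture. It stood at 18.1, 20.4 and 20.9 normalised CPM in T23 cells alone, at 18.5, 19 and 14.4 with wild-type fibroblasts and at 22.2, 18.5 and 19.1 with SPARC-deficient ones. It stood at 19.4, 19.4 and 21.4 with enzalutamide, at 17.8, 21 and 24.5 in the enzalutamide co-culture and at 31.2, 30.5 and 29.7 in the isoliquiritigenin co-culture. The last group lay above all others. Isoliquiritigenin raised Igfbp7 by 0.53 ± 0.10 (adjusted p = 0.000395, 1.45-fold), and by 0.42 within the second numbering series (adjusted p = 0.00570). Enzalutamide in co-culture gave 0.28 ± 0.11 (adjusted p = 0.132), and 0.39 (adjusted p = 0.0311) without replicate 1 of the enzalutamide co-culture. With a numbering term that value was 0.03, resting on replicate 1 of the enzalutamide co-culture. Igfbp7 (ENSMUSG00000036256) lies at chr5:77349240-77408041 on the minus strand, and 7.03% of its 1209 exon bases lie opposite Polr2b, so part of its reads depends on the strand setting of the counting, which is not given in the sources used here.

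Igfbp5, a matrix-bound binding protein, was at 0 counts in 14 libraries. It held 1 count in replicate 2 of the wild-type co-culture, 3 and 4 counts in the enzalutamide co-culture (replicates 1 and 2), and 1 count in replicate 3 with isoliquiritigenin. All counts thus came from co-cultures, at levels within or near the limit that a count of 0 allows, and no fold change was computed. Igfbp5 (ENSMUSG00000026185) lies at chr1:72857932-72874884 on the minus strand with 6006 bases of exon.

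Other ligands, receptors and carriers of the family were mostly absent. Of 11 listed relatives, 4 were tested, while Ins1, Ins2, Insrr, Igfbp1, Igfbp2 and Igfbpl1 were at 0 counts in all 18 libraries. Igf2bp2, an RNA-binding protein that binds IGF2 transcripts, rose with enzalutamide without fibroblasts, from 168 ± 1.63 to 207 ± 19.1 normalised CPM (0.30 ± 0.06, adjusted p = 0.00130; 0.23 and 0.00602 without replicate 2 of enzalutamide). In co-culture it rose from 174 ± 1.46 to 203 ± 10.9 (0.22 ± 0.06, adjusted p = 0.0170). Isoliquiritigenin lowered Igf2bp2 (-0.17 ± 0.06, adjusted p = 0.0345) and its relative Igf2bp1 (-0.24 ± 0.07, adjusted p = 0.0125). Of the 4 tested relatives, enzalutamide thus moved 1 without fibroblasts and 1 in co-culture (25%, against 12.0% and 7.18% of all tested genes). Isoliquiritigenin moved 2 (50%, against 26.5%). The insulin receptor gene Insr passed the threshold in none of the 8 tests.

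Of 8 genes for proteases that cut the binding proteins and for inhibitors of these proteases, 7 were tested. With isoliquiritigenin 3 rose and 2 fell (71.4% of those tested, against 26.5% of all tested genes). Pappa, which encodes the IGFBP4 protease PAPP-A, rose from 22.6 ± 0.517 to 39.3 ± 5.40 normalised CPM (0.80 ± 0.09, adjusted p = 4.04e-07), and Stc2, an inhibitor of PAPP-A, rose from 20.2 ± 2.16 to 34.2 ± 1.98 (0.76 ± 0.10, adjusted p = 3.13e-06). Htra1, a secreted serine protease, fell from 545 ± 37.5 to 288 ± 42.7 (-0.92 ± 0.08, adjusted p = 8.50e-09). Stc1, the other stanniocalcin and inhibitor gene of the list, fell from 6.54 ± 0.400 to 3.87 ± 0.187 (-0.75 ± 0.13, adjusted p = 0.000102). The RNA of Pappa and of Stc2 thus rose where that of Stc1 fell, and the listed inhibitor genes moved in opposite directions.

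With SPARC-deficient against wild-type fibroblasts 2 of the 7 rose and 0 fell (28.6%, against 11.5% of all tested genes): Stc1, a relative of Stc2, from 7.68 ± 0.756 to 14.9 ± 1.65 (0.96 ± 0.11, adjusted p = 1.64e-06), and Htra1 from 591 ± 2.04 to 737 ± 38.9 (0.32 ± 0.08, adjusted p = 0.00793). The same 2 genes rose against T23 cells alone, Stc1 by 0.79 ± 0.11 (adjusted p = 2.07e-05) and Htra1 by 0.32 ± 0.08 (adjusted p = 0.00843). Enzalutamide lowered 3 and raised 0 (42.9%, against 12.0%), the same counts as without its replicate 2. Adam12, a metalloprotease, fell from 46.7 ± 2.27 to 25.4 ± 2.94 (-0.87 ± 0.08, adjusted p = 7.31e-08; -0.85 and 4.52e-08 without replicate 2). Stc1 fell by 0.74 on the log2 scale (adjusted p = 0.000304; 0.000236 without replicate 2) and Stc2 fell by 0.48 (adjusted p = 0.00309; 0.00888 without it). In co-culture enzalutamide lowered Adam12 (-0.82 ± 0.08, adjusted p = 6.56e-07) and Stc2 (-0.41 ± 0.10, adjusted p = 0.0114) and raised Pappa (0.42 ± 0.10, adjusted p = 0.00681). These were the called genes of the 7 there (42.9%, against 7.18% of all tested genes).

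Receptor substrates and PI3K-AKT genes were tested for 21 of 22 listed genes. Isoliquiritigenin raised 5 and lowered 3 (38.1% of those tested, against 26.5% of all tested genes), with a list median of 0.04. Pik3r3, a regulatory subunit of PI3K, rose from 18.7 ± 1.42 to 41.9 ± 4.14 normalised CPM (1.16 ± 0.10, adjusted p = 2.07e-08), and Pik3r1, another such subunit, from 31.7 ± 1.92 to 63.2 ± 7.72 (1.00 ± 0.08, adjusted p = 2.55e-09). Grb10, which binds and restrains IGF1R and the insulin receptor, was the next by size, at 0.82 as given among the imprinted genes. SPARC-deficient against wild-type fibroblasts raised 4 and lowered 1 (23.8%, against 11.5%), each by less than 0.4 on the log2 scale, with Pik3r3 at -0.39 ± 0.12 (adjusted p = 0.0284), the adaptor Grb14 at 0.33 ± 0.10 (adjusted p = 0.0364) and the substrate Irs2 at 0.27 ± 0.06 (adjusted p = 0.00198). In the comparison with T23 cells alone 3 rose and 3 fell (28.6%, against 9.74%), led by Grb10 (-0.34 ± 0.08, adjusted p = 0.00712). Enzalutamide raised 3 and lowered 1 without fibroblasts (19% against 12.0%), and 0 and 2 without its replicate 2. In co-culture it raised 1 (4.76% against 7.18%). Grb14 rose in both, by 0.39 ± 0.10 (adjusted p = 0.0143) and 0.46 ± 0.10 (adjusted p = 0.00559), and the first call was lost without replicate 2 (0.32, adjusted p = 0.0624).

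**Figure D4:**
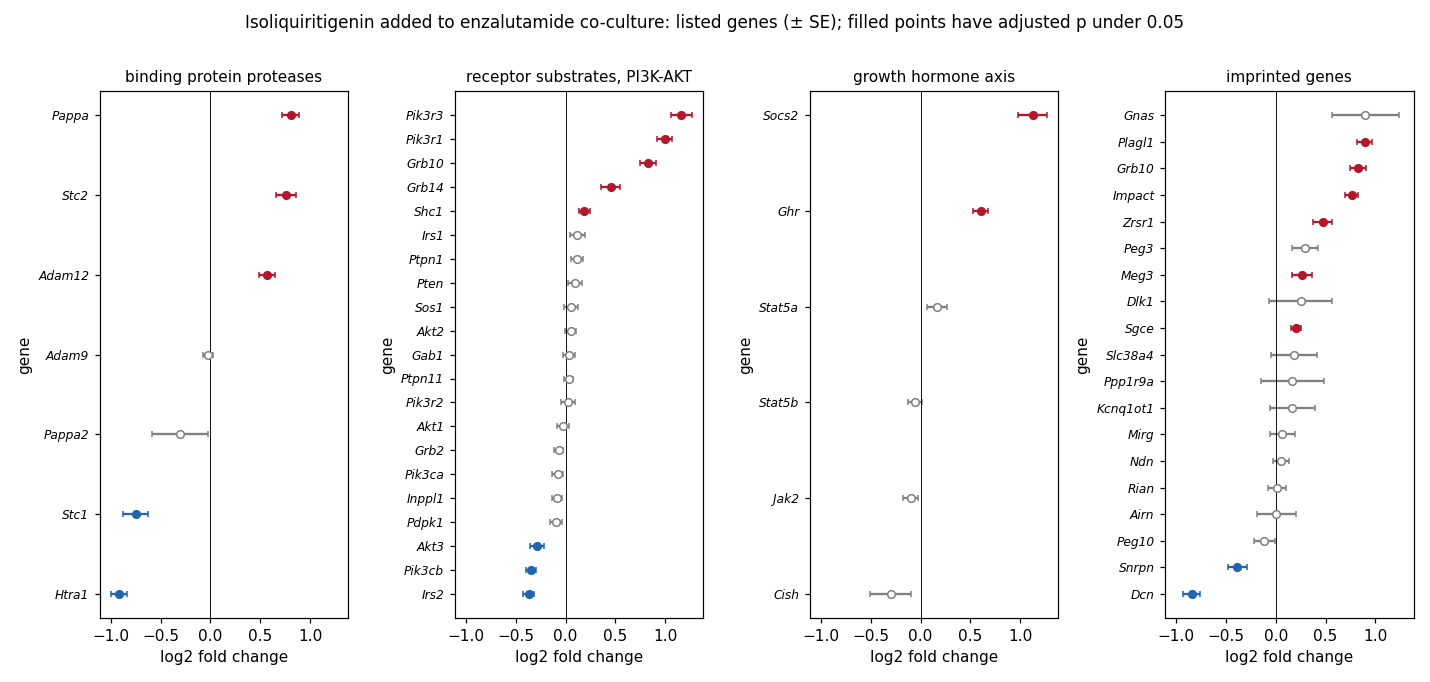
Log2 fold change ± SE with isoliquiritigenin added to the enzalutamide co-culture, for tested genes of 4 lists (panels); filled points have an adjusted p under 0.05, red for higher and blue for lower. Pik3r3 at 1.16, Socs2 at 1.12 and Pik3r1 at 1.00 lie highest among the filled points and Htra1 at -0.92 lowest; Grb10 is in 2 lists.

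FoxO factors and genes that insulin or IGF signalling is known to hold down were tested for 16 of 19 listed. SPARC-deficient against wild-type fibroblasts raised 5 and lowered 0 (31.2% of those tested, against 11.5% of all tested genes), with a list median of 0.20. Cited2, a transcriptional co-regulator, rose from 94.6 ± 3.41 to 141 ± 9.73 normalised CPM (0.58 ± 0.06, adjusted p = 7.78e-07). Txnip, an inhibitor of thioredoxin and glucose uptake, rose from 252 ± 16.9 to 365 ± 48.9 (0.53 ± 0.08, adjusted p = 4.77e-05), and the cyclin Ccng2 from 68.1 ± 6.94 to 95.6 ± 3.16 (0.49 ± 0.07, adjusted p = 5.88e-05). Against T23 cells alone 3 rose and 0 fell (18.8%, against 9.74%), with Cited2 at 0.44 ± 0.06 (adjusted p = 3.10e-05).

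Txnip was the only gene of these lists called with wild-type fibroblasts against T23 cells alone, at -0.42 ± 0.08 (adjusted p = 0.00947). That was 1 of the 16 tested genes of this list (6.25%, against 0.515% of all tested genes). Under enzalutamide, fibroblasts lowered 3 genes and raised 0 (18.8%, against 2.08%): Txnip from 281 ± 25.5 to 198 ± 4.36 (-0.50 ± 0.08, adjusted p = 0.000885), the PI3K inhibitor Pik3ip1 (-0.48 ± 0.10, adjusted p = 0.00684) and Ccng2 (-0.36 ± 0.08, adjusted p = 0.0108). Without replicate 2 of enzalutamide these adjusted p were 0.00117, 0.0125 and 0.0190. Enzalutamide raised 1 and lowered 3 without fibroblasts (25% against 12.0%), and 0 and 5 without its replicate 2. In co-culture it raised 1 and lowered 2 (18.8% against 7.18%), led by Ccng2 (-0.39 ± 0.07, adjusted p = 0.00153). With isoliquiritigenin 4 rose and 1 fell, 31.2% of those tested, near the 26.5% of all tested genes: Txnip fell to 139 ± 4.37 from 198 ± 4.36 (-0.51 ± 0.08, adjusted p = 2.82e-05), while Bcl6, a transcriptional repressor, rose by 0.35 ± 0.08 (adjusted p = 0.00132).

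All 6 listed genes of the growth hormone receptor and STAT5 axis, which controls Igf1 in the liver, were tested. Isoliquiritigenin raised 2 and lowered 0 (33.3%, against 26.5% of all tested genes). Socs2, a feedback inhibitor of the receptor, rose from 6.73 ± 0.400 to 14.6 ± 2.59 normalised CPM (1.12 ± 0.15, adjusted p = 3.42e-06), and Ghr, the receptor, from 81.2 ± 4.68 to 123 ± 10.5 (0.60 ± 0.08, adjusted p = 2.26e-06). Ghr also rose with enzalutamide without fibroblasts (0.37 ± 0.08, adjusted p = 0.00308; 0.28 and 0.0137 without replicate 2) and in co-culture (0.36 ± 0.08, adjusted p = 0.00525). Stat5a, a transcription factor of this axis, rose with SPARC-deficient against wild-type fibroblasts (0.39 ± 0.10, adjusted p = 0.00891). In each of these comparisons 1 of the 6 was called (16.7%, against 12.0%, 7.18% and 11.5% of all tested genes in this order).

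The genes whose log2 levels ran most alike with the 3 widest-ranging members were named over all 18 libraries and 13590 genes, as a description; the libraries share groups, scaling and depth. For Igf1 these were Atp6v0e2 (Pearson r = 0.956), Gem (0.948) and Ube2q1 (0.934). For H19 they included Dut and Medag, each at 0.936. For Igfbp7 they were Cic (0.955), Zfp36l2 (0.954) and Pld3 (0.930).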

How the data were processed

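The authors deposited a file of raw counts for each library, listed by Ensembl gene identifier and not normalised. Per the labels' protocols, polyadenylated RNA went into stranded libraries with dUTP in the second strand, run on a NextSeq 550. The submitters' processing notes name STAR 2.6.1d and cutadapt 2.9, featureCounts 2.0, DESeq2, FastQC 0.11.9, bcl2fastq 2.20.0.422 and the build GRCm38. The release of the annotation, how strand was set and how reads with several matches were treated are not given in the sources used here. Library totals of 16.1 to 26.7 M counts set the precision, and, without molecular identifiers, the limits given for a count of 0 cover only counting error.

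Symbols, coordinates and exon lengths came from GENCODE M21, which paired 55227 of 55487 identifiers; the other 260 held 0.00552% of counts. filterByExpr (minimum count 10) kept 13600 genes. After TMM scaling, counts were fitted with edgeR 4.0.16 (limma 3.58.1, R 4.3.3) by quasi-likelihood, with a mean per group, all 18 libraries, a biological coefficient of variation of 7.03% and 12 residual degrees of freedom. Tests are two-sided F tests, with Benjamini-Hochberg adjustment over the 13600 genes of each comparison, and genes were called at an adjusted p under 0.05. The SE is the size of the log2 fold change divided by the root of F. The script was tested on simulated counts. Alternatives were DESeq2 1.42.0, RLE size factors, no filter on low counts, only the groups compared, a replicate block, counts without CT010467.1, the numbering series as a term, and each of 18 libraries left out in turn. The length of the longest transcript, and the list genes without enzalutamide replicate 2, were added after the data had been seen.

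The members and gene lists were chosen with earlier results of these data known. The text names the 10 members, up to 3 called genes of largest change per list and comparison, and the 3 genes most like each of 3 members. A gene that this rule names is not reported here. Other genes named were chosen after their values were seen. Replicate numbers did not pair libraries: 0 of 15 group pairs had every same-number correlation over 0.1 (range -0.144 to 0.0982).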

Additional observations from a re-analysis of the deposited data

How the results depend on the processing

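Of 64 member-by-comparison results, 19 were called. Of these, 16 kept direction and call under every alternative and 3 lost the call, each only with a library left out, as given beside them; 8 uncalled results were called under at least 1 alternative. For wild-type fibroblasts against T23 cells alone, the 0 called members became 1 with DESeq2, 2 without the filter and 2 with only the groups compared; for fibroblasts under enzalutamide, 0 became 1 without the filter. With libraries left out in turn, called members numbered 0 to 1 for wild-type fibroblasts, 2 to 3 for SPARC-deficient fibroblasts against T23 cells alone and 3 to 4 against wild-type ones. They numbered 3 to 4 for enzalutamide alone and in co-culture, 5 to 7 for isoliquiritigenin, and 0 for fibroblasts under enzalutamide and for the interaction. Calls over all genes also moved widely with libraries left out. These were 743 to 1724 for SPARC-deficient fibroblasts against T23 cells alone and 857 to 2085 against wild-type ones. For enzalutamide they were 901 to 1710 alone and 550 to 1423 in co-culture, and for isoliquiritigenin 2522 to 4225. Ranges for the other tests are given below. A replicate block, tried though the numbers did not pair the libraries, changed no member's call.

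Sign changes occurred 18 times, in 9 uncalled results and in no called one. With the numbering series as a term, log2 fold changes were 0.0208 for Igf1 with enzalutamide in co-culture and -0.183 for Igfbp7 with fibroblasts under enzalutamide. Both values rest on replicate 1 of the enzalutamide co-culture. With libraries left out, the ranges for these were -0.174 to 0.0563 and -0.0578 to 0.176. For Igf2r with SPARC-deficient against wild-type fibroblasts the range was -0.0214 to 0.0848. Against T23 cells alone, SPARC-deficient fibroblasts gave -0.0335 to 0.104 for Igf1 and -0.0688 to 0.0632 for Igfbp7. For enzalutamide alone the ranges were -0.113 to 0.0556 for Igfbp6 and -0.0347 to 0.0666 for Igfbp7. For H19 with fibroblasts under enzalutamide the range was -0.289 to 0.114, and for the Igfbp4 interaction -0.0616 to 0.0251. The cause was not tested.

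Over all genes, calls for wild-type fibroblasts numbered 70, and 148 with DESeq2, 165 without the filter, 336 with only the groups compared and 11 to 157 with a library left out. For fibroblasts under enzalutamide they numbered 283, and 438, 541, 56 and 83 to 419 in the same order. With the numbering term fewer genes were called in this comparison and with enzalutamide in co-culture. That term leaves only replicate 1 of the enzalutamide co-culture to carry them. With only the groups compared 1325 became 2188 for SPARC-deficient fibroblasts against T23 cells alone and 1636 became 740 for enzalutamide. For the interaction 3 became 8 with DESeq2, 99 without the filter and 0 to 12 with a library left out. It became 0 with RLE size factors, only the groups compared, a replicate block or counts without CT010467.1. H19, at 45 to 326 counts, is the tested member that depth limits most.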
